A study of Mus musculus with 34 samples.

Results

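Genes of dopamine signalling were followed through 3 brain regions of wild-type mice and of Myt1l heterozygotes. The set was chosen by gene symbol: the 5 dopamine receptors (Drd1, Drd2, Drd3, Drd4, Drd5), the synthesis enzymes Th and Ddc, the vesicle transporter Slc18a2 and the breakdown enzyme Maoa. Of these 9 genes, 8 are among the 18548 genes of the deposited table. Drd4 is not in that table, whose rows all hold a value of 10.2 or more in at least 1 library, so it was filtered and has no values here. A higher Th level in heterozygote striatum was already known when the set was chosen. Genotype differences in striatum are therefore given as a description, without a test, and so are the Th differences that involve striatum of either genotype.

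The study sequenced RNA of prefrontal cortex (PFC), hippocampus and striatum from male C57BL/6J mice on postnatal day 56 (P56), in 34 libraries. The protein made from Myt1l is a neuronal transcription factor with zinc fingers. Wild-type mice gave 6 libraries per region. Heterozygotes gave 5 of PFC, 5 of hippocampus and 6 of striatum; the labels name the heterozygous mutation but do not describe the allele, and they record no treatment. They also do not say that the libraries of a group come from separate animals, so p-values measure the spread between these libraries, which may be technical.

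Values are normalized counts, the authors' read counts after scaling between libraries, and sum to between 25786041 and 29798959 per library. Depth before scaling is unknown. Myt1l itself stood at 6820 ± 456 (SD, n = 5) in heterozygote and 6650 ± 842 (SD, n = 6) in wild-type PFC, at 6896 ± 385 and 6216 ± 594 in hippocampus, and at 8162 ± 954 and 7675 ± 552 (n = 6 each) in striatum. Its level was in no region lower in heterozygotes, so it gives no check of the genotype labels, and "heterozygote" below means the libraries so labelled. The table's column headings carry 12 codes that recur across regions. One of them, 31-67M, stands on wild-type replicate 6 of PFC but on heterozygote replicate 1 of hippocampus and of striatum. The labels were followed, and genotype differences are given with and without these libraries.

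The tissue labels were checked against marker genes. Summed over 17 markers of striatal projection neurons, striatum libraries held 107738 to 158407 normalized counts, against at most 31164 in PFC and 19746 in hippocampus. The 7 markers of hippocampal excitatory neurons summed to at least 28690 in hippocampus and to at most 16365 elsewhere. Striatum libraries also held markers of other structures. The 8 detected hypothalamus markers summed to between 930 and 3353 there, against at most 68.7 in PFC. The hypothalamic hormone gene Oxt averaged 819 ± 398 (SD, n = 6) in wild-type and 713 ± 330.0 (SD, n = 6) in heterozygote striatum, and 1.51 ± 1.92 in wild-type PFC. Choroid plexus markers ranged from 1671 to 93119 in striatum, from 2375 to 90572 in hippocampus and from 135 to 262 in PFC. These are bulk tissue libraries, so fewer cells of a type and less RNA per cell cannot be told apart.

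Dopamine is made from tyrosine in a pair of steps. Tyrosine hydroxylase (Th), the rate-limiting enzyme, makes L-DOPA, and aromatic L-amino acid decarboxylase (Ddc) turns it into dopamine. The vesicular monoamine transporter VMAT2 (Slc18a2) loads dopamine into vesicles, and monoamine oxidase A (Maoa) oxidises it on the outer mitochondrial membrane. Receptors fall into a class that raises cyclic AMP (Drd1 and Drd5) and a class that lowers it (Drd2, Drd3 and Drd4). Most dopamine of the forebrain is released by axons of midbrain neurons whose cell bodies lie outside the regions sampled. In striatum, Drd1 marks projection neurons of the direct pathway and Drd2 those of the indirect pathway.

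Promoter sequences are shown for Th and Slc18a2, because they alone among the set hold the cyclic AMP response element TGACGTCA, and for Drd1 and Drd2, the receptors with the highest striatal levels per kilobase. All are RefSeq sequences of GRCm38.p6, running from 250 bases before to 50 bases after the annotated start, 5′ to 3′ on the gene's strand. Capitals mark the response element in the first pair and the GC box (GGGCGG, or CCGCCC where it lies on the other strand) in the second pair.
Th, chr7:142899946-142900245, minus strand: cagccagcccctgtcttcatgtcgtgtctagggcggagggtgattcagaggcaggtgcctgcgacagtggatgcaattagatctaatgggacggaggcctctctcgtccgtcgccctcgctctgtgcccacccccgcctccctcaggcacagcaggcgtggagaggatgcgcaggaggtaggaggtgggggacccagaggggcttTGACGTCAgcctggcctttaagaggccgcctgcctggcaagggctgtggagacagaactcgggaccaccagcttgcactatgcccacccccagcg
Slc18a2, chr19:59260628-59260927, plus strand: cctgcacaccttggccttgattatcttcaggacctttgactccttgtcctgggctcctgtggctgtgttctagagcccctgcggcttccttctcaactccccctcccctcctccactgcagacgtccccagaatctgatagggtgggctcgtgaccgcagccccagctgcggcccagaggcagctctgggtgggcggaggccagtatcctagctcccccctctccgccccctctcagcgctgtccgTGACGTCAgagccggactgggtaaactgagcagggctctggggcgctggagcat
Drd1, chr13:54055609-54055908, minus strand: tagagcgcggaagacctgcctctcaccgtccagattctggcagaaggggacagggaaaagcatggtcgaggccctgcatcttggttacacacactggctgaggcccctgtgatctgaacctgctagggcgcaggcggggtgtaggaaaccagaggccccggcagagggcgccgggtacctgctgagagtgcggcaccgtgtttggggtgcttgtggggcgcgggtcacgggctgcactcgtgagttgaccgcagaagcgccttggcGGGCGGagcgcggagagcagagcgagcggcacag
Drd2, chr9:49340153-49340452, plus strand: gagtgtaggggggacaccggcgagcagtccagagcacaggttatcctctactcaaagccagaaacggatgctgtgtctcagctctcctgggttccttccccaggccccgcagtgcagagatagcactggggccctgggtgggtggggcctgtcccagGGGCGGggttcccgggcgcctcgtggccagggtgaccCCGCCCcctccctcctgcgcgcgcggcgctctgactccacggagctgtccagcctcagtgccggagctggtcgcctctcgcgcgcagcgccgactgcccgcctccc
The response element begins 45 bases before the start in Th and 4 bases before it in Slc18a2. It is its own reverse complement and occurs in 1.79% of all 32851 promoters of this length. It was in 2 of the 11 promoter entries that RefSeq gives for these 9 genes, where Drd1 and Ddc have 2 entries each. The GC box occurs in 35.7% of all promoters and in 8 of the 11 entries, in none of Drd3 and Ddc. AAGTTT (or AAACTT), the core motif bound by the MYT family of zinc fingers, occurs in 14.4% of all promoters and in 0 of the 11 entries. None of these motifs contains another. These matches describe letters and not binding.

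The receptors Drd1, Drd2 and Drd3 were highest in striatum, and Drd5 was highest in hippocampus, in wild-type libraries (n = 6 per region). Drd1 (chr13:54051183-54055705, GRCm38, minus strand) had 2921 to 4011 normalized counts in striatum with a median of 3475, 159 to 391 in PFC with a median of 248, and 98.4 to 147 in hippocampus with a median of 126. The striatum libraries stood far above all others, and PFC libraries stood above hippocampus libraries without overlap. Regions were compared with limma on log2(normalized count + 1), 2-sided, with Benjamini-Hochberg adjustment over 17017 genes and a threshold of 0.05. The Drd1 level was 14.2-fold higher in striatum than in PFC (log2 difference of PFC minus striatum -3.82, SE 0.16, adjusted p = 3.93e-14) and 28.2-fold higher than in hippocampus (adjusted p = 7.39e-16), and PFC exceeded hippocampus by 0.99 (SE 0.16, adjusted p = 2.19e-05).

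Drd2 (chr9:49340627-49408177, plus strand) ranged from 2383 to 3045 in striatum with a median of 2774. It ranged from 12.9 to 200.4 in PFC with a median of 59.2, and from 38.4 to 75.3 in hippocampus with a median of 63.2. PFC libraries lay on both sides of the hippocampus range. The striatum level was 44.9-fold above PFC (adjusted p = 1.62e-08) and 45.7-fold above hippocampus (adjusted p = 2e-08), while PFC and hippocampus differed by 0.03 (SE 0.45, adjusted p = 0.971).

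Drd3 (chr16:43754026-43822932, plus strand), a receptor known from the ventral striatum, had 39.0 to 72.9 normalized counts in striatum with a median of 58.9. It was listed at 0 in 3 of 6 PFC libraries and 1 of 6 hippocampus libraries, with highest values of 4.53 and 3.92. Striatum libraries did not overlap with the others. Drd3 passed the level filter only through its striatum values, so its regional differences are given without a test. PFC minus striatum was -4.95 on the log2 scale with a pseudocount of 1 and -3.31 with a pseudocount of 5, so the fold depends on that choice.

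Drd5 (chr5:38319367-38322518, plus strand) had another regional order, with hippocampus highest. It ranged from 267 to 377 in hippocampus with a median of 329, from 75.4 to 115 in striatum with a median of 91.4, and from 59.3 to 85.6 in PFC with a median of 71.6. Hippocampus stood 4.46-fold above PFC (adjusted p = 3.36e-12) and 3.42-fold above striatum (adjusted p = 5.63e-11). PFC and striatum overlapped, and PFC minus striatum was -0.38 (SE 0.13, adjusted p = 0.012). Drd5 shares exonic bases with the antisense gene Gm26560, which has no row in the table, and the library kit does not mark strand, so reads of the pair cannot be told apart.

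The genes of synthesis and packaging were all highest in striatum but differed in their order elsewhere. Striatum libraries also held hypothalamus and choroid plexus markers, and the part of those tissues in the levels of these genes and of Maoa was not tested. Th (chr7:142892752-142931128, minus strand) ranged from 165 to 214 in wild-type striatum with a median of 185, from 30.3 to 78.2 in PFC with a median of 37.9, and from 6.45 to 20.8 in hippocampus with a median of 14.2. No regions overlapped. Striatum exceeded PFC 4.37-fold and hippocampus 13.8-fold. These folds are given without a test, because wild-type striatum Th was part of the contrast that chose the set. PFC exceeded hippocampus by 1.66 on the log2 scale (SE 0.26, adjusted p = 1.9e-05).

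Ddc (chr11:11814101-11898144, minus strand) ranged from 323 to 435 in striatum with a median of 380.1, from 120.1 to 169 in PFC with a median of 139.9, and from 148 to 216 in hippocampus with a median of 167. Striatum exceeded PFC 2.62-fold (adjusted p = 4.32e-10) and hippocampus 2.2-fold (adjusted p = 1.4e-08). PFC and hippocampus overlapped and differed by -0.25 (SE 0.11, adjusted p = 0.0722). That difference passed the threshold when libraries were rescaled to equal totals (adjusted p = 0.0168), without wild-type PFC replicate 5 (0.0400), and without wild-type hippocampus replicate 1 (0.0459) or 3 (0.0481).

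Slc18a2 (chr19:59260896-59296012, plus strand) showed the steepest gradient of the presynaptic genes. It ranged from 179.5 to 297 in striatum with a median of 203, from 47.1 to 72.1 in hippocampus with a median of 55.5, and from 2.38 to 19.5 in PFC with a median of 7.77. No regions overlapped. Striatum exceeded hippocampus 3.78-fold (adjusted p = 7.64e-06). PFC minus hippocampus was -2.73 on the log2 scale (SE 0.29), the reverse of the Th order, and striatum exceeded PFC 25.1-fold. The differences from PFC are given without a test. Slc18a2 averaged 8.96 in PFC and passed the level filter only through hippocampus and striatum. With low counts in PFC, PFC minus striatum ran from -4.90 to -4.08 on the log2 scale over the alternative fits. The antisense gene Gm29261, which has no row in the table, shares exonic bases with Slc18a2.

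Maoa (chrX:16619698-16687818, plus strand) was the most even gene of the set. It ranged from 1042 to 1298 in striatum with a median of 1244, from 839 to 968 in PFC with a median of 902, and from 795 to 931 in hippocampus with a median of 886. Striatum exceeded PFC 1.34-fold (adjusted p = 8.89e-07) and hippocampus 1.37-fold (adjusted p = 4.59e-07), while PFC and hippocampus overlapped and differed by 0.03 (SE 0.06, adjusted p = 0.704).

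Drd3, Th against striatum, and Slc18a2 against PFC are left out of the calls that follow, for the reasons given above. Drd1, Drd2, Drd5, Ddc and Maoa were all higher in striatum than in PFC, beside 29% of all 17017 genes. The groups of these genes except Drd5 were apart, beside 17.5% of all genes in that direction. Against hippocampus, Drd1, Drd2, Ddc, Slc18a2 and Maoa were higher in striatum (23.9% of all genes) and Drd5 was lower (23.6% of all genes). The groups of each of these genes were apart (29.8% of all genes in either direction). Between PFC and hippocampus, Drd1, Drd5 and Th differed (46.3% of all genes) and their groups were apart (29% of all genes). Drd2, Ddc and Maoa did not pass there. Rescaling all libraries to equal totals moved the median of all genes between PFC and striatum by -0.14 on the log2 scale, and the share of called genes higher in PFC from 48.8% to 30.2%. No gene of the set lost its call, and Drd2 and Maoa changed sign between PFC and hippocampus (both -0.06), where neither was called.

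**Figure D1:**
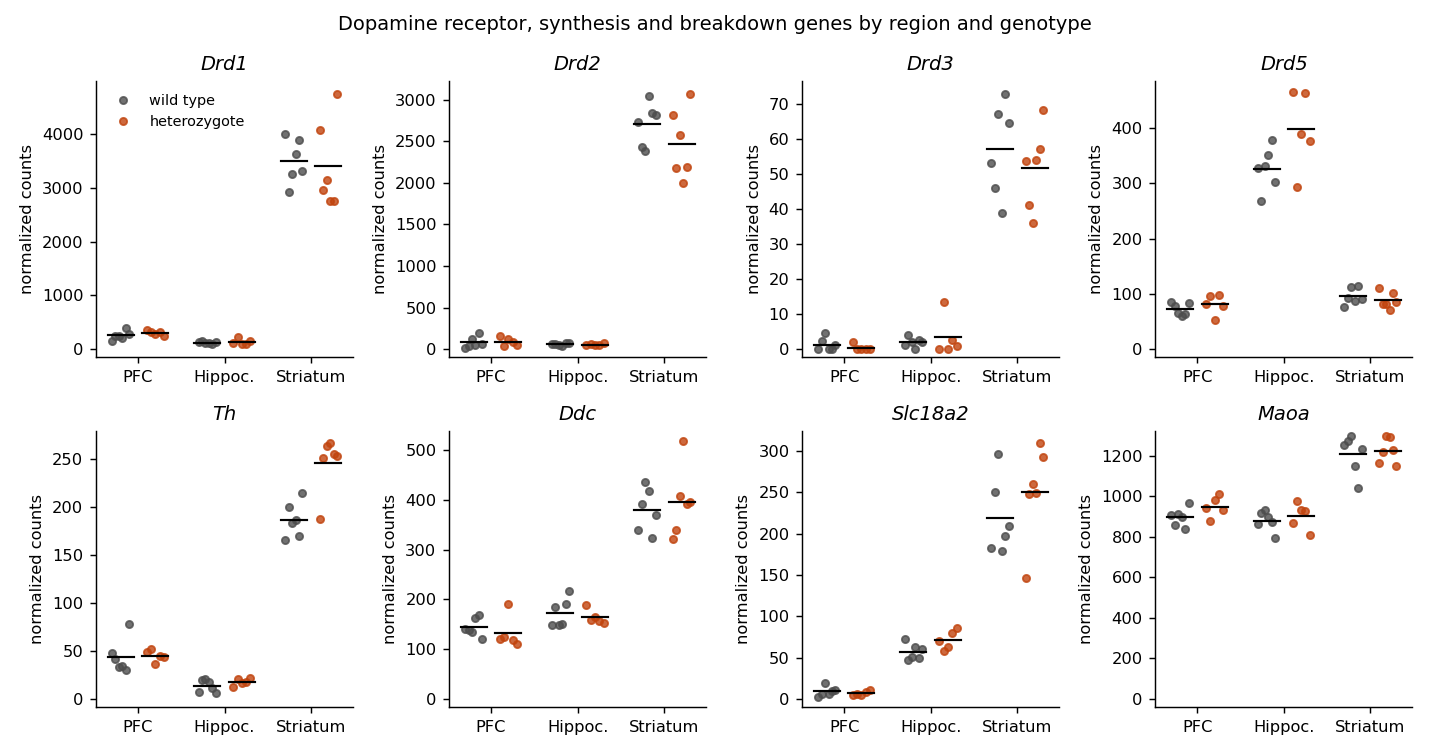
Normalized counts (vertical axes from 0, 1 panel per gene) of 8 genes in PFC, hippocampus and striatum; each point is a library, grey for wild type and orange for heterozygote, and bars are group means. Drd1, Drd2 and Drd3 stand high in striatum and Drd5 in hippocampus, and 5 of 6 heterozygote striatum libraries lie above all wild-type libraries for Th.

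Levels of different genes were compared per kilobase of exon. In wild-type striatum the mean order was Drd2 (1064 ± 99.9 normalized counts per kb, SD, n = 6), Drd1 (967 ± 114), Maoa (290.1 ± 23.1), Ddc (85.0 ± 9.88), Th (79.0 ± 7.86), Slc18a2 (42.0 ± 8.76), Drd3 (33.4 ± 7.75) and Drd5 (30.2 ± 4.81). The ranges of Drd2 and Drd1 overlapped, as did those of Ddc and Th, of Slc18a2 and Drd3, and of Drd3 and Drd5. In PFC and hippocampus Maoa led, at 215 ± 10.9 and 211 ± 11.6 per kb. It was followed by Drd1 in PFC (70.3 ± 21.8) and by Drd5 in hippocampus (104 ± 12.1). Drd3 was the lowest in both, at 0.775 ± 1.06 and 1.15 ± 0.766 per kb.

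The heterozygote libraries, a separate set of 16, were ordered by region in the same way for most genes, in their own fit over 17080 genes. Against PFC, leaving out Th, Drd3 and Slc18a2, the genes Drd1, Drd2, Ddc and Maoa were higher in striatum (28.1% of all genes). Drd1 was 11-fold (adjusted p = 5.64e-10) and Drd2 31.7-fold higher (adjusted p = 3.39e-10). Slc18a2 averaged 6.82 in heterozygote PFC and passed the level filter only through the other regions, so its differences from PFC are given without a test. Its level was 32.7-fold higher in striatum, and PFC minus striatum ran from -5.30 to -4.43 over the alternative fits. Drd5 was the exception, with a log2 difference of -0.13 between PFC and striatum (SE 0.16, adjusted p = 0.525), which without heterozygote PFC replicate 3 was 0.01. Against hippocampus, 5 of 6 genes, leaving out Th and Drd3, were higher in striatum (22.6% of all genes). Drd5 was 4.43-fold higher in hippocampus (22.7% of all genes in that direction, adjusted p = 2.24e-09). Between PFC and hippocampus, Drd1 and Th were higher in PFC (20.7% of all genes) and Drd5 higher in hippocampus (21.9% of all genes), the genes that also differed in wild type. Slc18a2 differed by -3.26 (SE 0.23), without a test. Ddc did not pass there (-0.32, SE 0.14, adjusted p = 0.0765), but passed after rescaling to equal totals (adjusted p = 0.0258) and without PFC replicate 3 (adjusted p = 0.0056). Drd2 did not pass either (0.45, SE 0.30, adjusted p = 0.246) except without PFC replicate 2 (adjusted p = 0.0248).

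**Figure D2:**
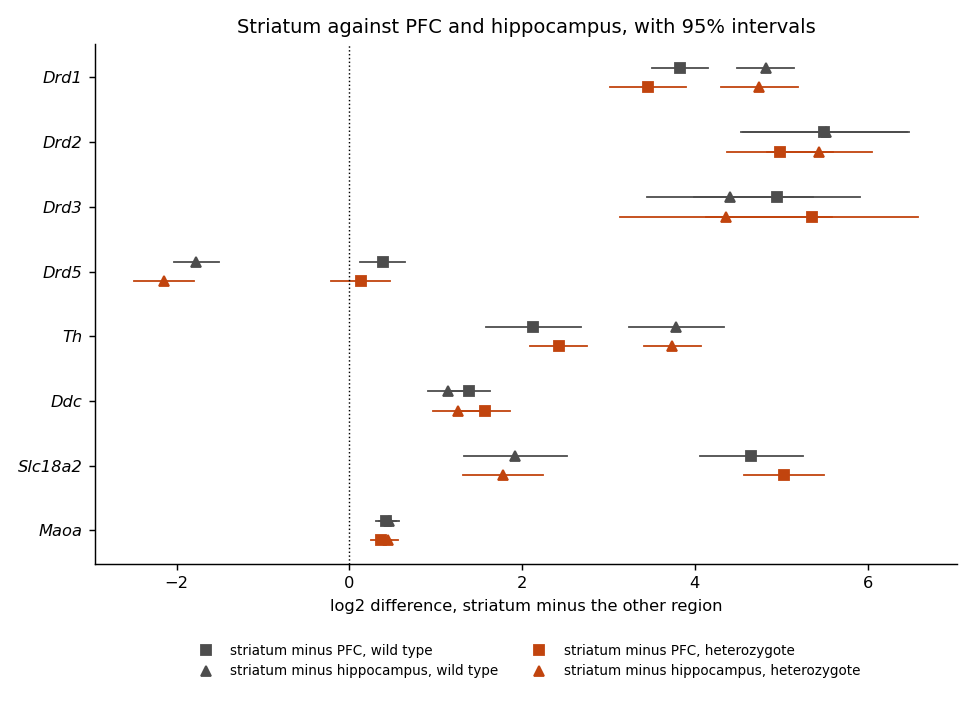
Log2 difference of striatum minus PFC (squares) and striatum minus hippocampus (triangles) for 8 genes (vertical axis), in wild-type (grey) and heterozygote (orange) libraries, with 95% intervals as bars and 0 as a dotted line. Drd5 is the gene to the left of 0 against hippocampus, and Maoa and Drd5 against PFC lie nearest to 0. Values of Th and Drd3, and of Slc18a2 against PFC, are a description without a test.

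In PFC, no tested gene of the set passed the threshold between genotypes. Drd3 and Slc18a2, with means below 10, were not tested. Of the other 6 genes, 0 passed by limma, 0 had an unadjusted p under 0.05, and 0 had groups apart. Over all 16667 genes the share called was 0%, 833 genes had an unadjusted p under 0.05, and groups were apart in 0.462%. The median log2 difference of the 6 genes was 0.13, against -0.003 over all genes.

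Drd1 in heterozygote PFC had 250.3, 279, 311, 324 and 358 normalized counts, and wild-type PFC 159 to 391 with a median of 248. The heterozygote values lay within the wild-type range. The log2 difference was 0.30 (95% interval -0.08 to 0.68, adjusted p = 0.977), and 0.58 over the libraries whose code begins with 35. Drd2 spread more widely, with 34.6, 49.5, 81.1, 117 and 154 in heterozygotes, again within the wild-type range of 12.9 to 200.4. Its difference was 0.36 (95% interval -1.09 to 1.81, adjusted p = 0.989). It was -0.06 without wild-type replicate 1 and 0.99 over the libraries whose code begins with 35, so the interval leaves room for a change in either direction.

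The PFC values of Drd1 and Drd2 were set beside markers of striatal neurons and of oligodendrocytes. Wild-type replicate 5 had the highest Drd2 (200.4), the highest Drd1 (391) and the highest sum of projection neuron markers (31164). Wild-type replicate 1 had the lowest Drd2 (12.9), the lowest Drd1 (159) and the lowest such sum (21946). The 6 direct pathway markers did not follow this order, since that library had their highest sum (3131, against 2749 to 3115 in the other PFC libraries). Its oligodendrocyte markers were also low (87654, against at least 117119 in the others). Among heterozygotes, replicate 1 had the highest Drd2 (154), Drd1 (358) and marker sum (27967). The part of these cells in the PFC values of Drd1 and Drd2 was not tested.

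Without wild-type replicate 6, which has code 31-67M, the PFC differences were 0.34 for Drd1, 0.39 for Drd2, 0.20 for Drd5, -0.18 for Ddc and 0.10 for Maoa. With it, Drd5 differed by 0.15 (SE 0.17, adjusted p = 0.978), Ddc by -0.13 (SE 0.14, adjusted p = 0.978) and Maoa by 0.08 (SE 0.05, adjusted p = 0.977). Th had 36.2, 44.0, 44.6, 48.7 and 52.4 in heterozygotes and 30.3 to 78.2 in wild type with a median of 37.9. The highest of all 11 was wild-type replicate 6, the library with code 31-67M. The Th difference was 0.10 (95% interval -0.38 to 0.58, adjusted p = 0.992) with it and 0.28 without it (adjusted p = 0.922). Slc18a2 ranged between 4.31 and 10.2 among heterozygotes and between 2.38 and 19.5 among wild types. Drd3 was listed at 0 in 4 of 5 heterozygote and 3 of 6 wild-type libraries.

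In hippocampus, 0 of the 7 tested genes passed by limma, 1 had an unadjusted p under 0.05, and the groups of 0 were apart. Over all 16820 genes the share called was 0%, 1145 had an unadjusted p under 0.05, and groups were apart in 0.678%. The median log2 difference was 0.04 over the 7 genes and -0.001 over all genes. Drd3 was below the level filter, reaching 13.5 in a heterozygote and 3.92 in a wild-type library.

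Drd5, the receptor with its highest level in this region, had 294, 376, 389, 464 and 464 normalized counts in heterozygotes (397 ± 71.0, SD, n = 5) and 267 to 377 in wild type (326 ± 38.3, SD, n = 6). Of the 5 heterozygote libraries, 4 were above the wild-type mean and 3 above every wild-type library. The log2 difference was 0.27 (95% interval 0.02 to 0.52) with an unadjusted limma p of 0.0367 and an adjusted p of 0.727. It was 0.21 without replicate 1, the library with code 31-67M, and the adjusted p over the alternatives that left out a library ranged from 0.395 to 0.877. The change did not pass the threshold. The libraries with the highest Drd5, replicates 1 and 4, had oligodendrocyte marker sums of 172489 and 177921, and the lowest, replicate 2, had 134382. The medians of these sums were 163797 in heterozygotes and 165123 in wild type. Hippocampal excitatory neuron markers had medians of 33098 and 30781, and the same replicate 2 was lowest at 28690. The part of these cells in the Drd5 values was not tested.

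Slc18a2 had 57.9, 63.3, 70.1, 79.5 and 86.0 in heterozygote hippocampus (71.4 ± 11.5, SD, n = 5) and 47.1 to 72.1 in wild type (57.0 ± 9.75, SD, n = 6). All 5 heterozygote libraries were above the wild-type mean, and the groups overlapped. The difference was 0.32 (95% interval -0.03 to 0.67, adjusted p = 0.755). Th had 12.7, 16.1, 17.2, 21.2 and 21.3 in heterozygotes and 6.45 to 20.8 in wild type, a difference of 0.44 (95% interval -0.28 to 1.16, adjusted p = 0.848). Over the libraries whose code begins with 35 the Th difference was 0.10. Choroid plexus markers had a median of 70728 in heterozygote and 40437 in wild-type hippocampus; their part in these values was not tested.

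Drd1 differed by 0.01 in hippocampus (SE 0.21, adjusted p = 0.996), Drd2 by -0.07 (SE 0.19, adjusted p = 0.974), Ddc by -0.06 (SE 0.12, adjusted p = 0.954) and Maoa by 0.04 (SE 0.06, adjusted p = 0.942). Without replicate 1 of the heterozygotes these were 0.06, -0.05, -0.11 and 0.05, and the differences of Th and Slc18a2 were 0.55 and 0.32. Heterozygote replicate 2 had the highest Drd1 (219) and Drd3 (13.5) of that region, and the highest sum of indirect pathway markers (1335, against at most 1006 in the other heterozygote and 951 in the wild-type libraries). The part of these cells was not tested. The genotype difference in PFC minus that in hippocampus was fitted for 7 genes in a joint fit over 16827 genes. Slc18a2 passed the level filter there only through its hippocampus values, so its difference of -0.52 (SE 0.45) is given without a test. Of the other genes of the set, 0 passed by limma and 0 had an unadjusted p under 0.05, and 0% of all genes were called. The difference was -0.34 for Th (SE 0.40), with an adjusted p of 0.9998 for every tested gene of the set.

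In striatum, Th was higher in heterozygotes, which is the value that chose the set. Heterozygote libraries had 187, 252, 253, 256, 264 and 267 normalized counts, a mean of 247 ± 29.5 (SD, n = 6). Wild-type libraries had 165, 170.0, 183, 187, 201 and 214, a mean of 187 ± 18.6 (SD, n = 6). All 6 heterozygote libraries were above the wild-type mean and 5 were above every wild-type library, so the groups overlapped only through the lowest heterozygote library. The difference was 0.40 on the log2 scale (SE 0.10), a 1.32-fold higher level. Over all 17054 genes in this contrast 0% were called, 1004 had an unadjusted p under 0.05, and groups were apart in 0.399%. The groups of 0 of the 8 genes were apart.

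The lowest library of either genotype was its replicate 1, at 187 in heterozygotes and 165 in wild type, the pair whose codes begin with 31. The Th difference was 0.47 without heterozygote replicate 1 (code 31-67M) and 0.49 over the libraries whose code begins with 35. Leaving out each library in turn gave 0.36 to 0.47.

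Markers of other tissues differed widely among the striatum libraries. The 7 markers of cortical excitatory neurons summed to 9475 to 11757 in heterozygote replicates 1 and 2 and to 2312 to 3354 in the other 4. In wild type they summed to 8323 to 12746 in replicates 1, 4 and 5 and to 2401 to 2917 in the other 3. The medians of these sums were 3026 in heterozygotes and 5620 in wild type. The lowest Th of heterozygotes (replicate 1, 187) and both of the lowest of wild type (replicates 1 and 5, 165 and 170.0) were among the libraries with high cortical markers. Heterozygote replicate 2, at 9475, had 252. Wild-type replicate 4, also with high cortical markers, had 187, against a wild-type median of 185. Choroid plexus markers were 1671 in heterozygote replicate 1 and 23916 to 93119 in the other 11 libraries. The part of cortical and choroid plexus tissue in the Th values was not tested.

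Cells that make dopamine or other catecholamines were looked for by their markers. Of 12 markers of midbrain dopamine neurons 5 have rows in the table, and the dopamine transporter Slc6a3 and the transcription factor gene Pitx3 do not. The 5 summed to 2183 to 2829.7 in heterozygote and 2286 to 2818 in wild-type striatum. They summed to more in hippocampus (3332 to 4293), where Th was lowest. Aldh1a1, 1 of the 5, averaged 1325 ± 267 in wild-type striatum and 1705 ± 103 in wild-type hippocampus (SD, n = 6 each). The sum thus rests in large part on 1 gene and cannot show the content of dopamine neurons. Dbh, the enzyme that makes noradrenaline from dopamine, averaged 2.48 ± 2.29 and 2.07 ± 2.32 (SD, n = 6 each) in striatum and was listed at 0 in 2 heterozygote and 3 wild-type libraries. Hypothalamus markers ranged in sum over 1335 to 3334 for heterozygote libraries, and over 930 to 3353 for wild-type ones, with medians of 2162 and 2305. Olfactory bulb markers summed to 374 to 554 and 413 to 558. The part of these tissues in the Th value was not tested.

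**Figure D3:**
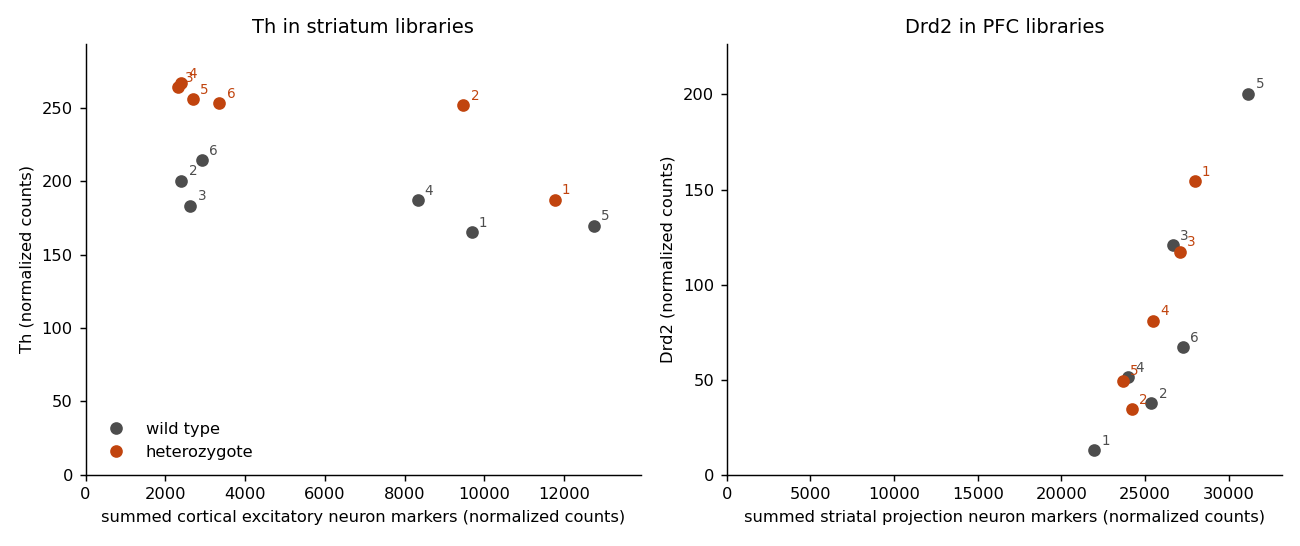
Left, Th (vertical axis, normalized counts) against the sum of 7 cortical excitatory neuron markers (horizontal axis, normalized counts) in 12 striatum libraries; right, Drd2 against the sum of 17 striatal projection neuron markers in 11 PFC libraries. Points are libraries with their replicate number, grey for wild type and orange for heterozygote: on the left the heterozygote with the lowest Th (187) has the highest cortical markers of its genotype, and on the right Drd2 runs from 12.9 at the lowest marker sum to 200.4 at the highest.

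The other genes differed less between genotypes in striatum. Slc18a2 ranged from 146 to 309 in heterozygotes and from 179.5 to 297 in wild type, a difference of 0.18 (SE 0.17), which was 0.33 without heterozygote replicate 1, its lowest library too. Ddc ranged from 321 to 518 and from 323 to 435, a difference of 0.05 (SE 0.11), which was 0.11 without that library. Maoa differed by 0.02 (SE 0.06), and by 0.04 without it.

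The 4 measured receptors all had differences below 0 in striatum. Drd2 ranged from 1993 to 3072 in heterozygotes and from 2383 to 3045 in wild type, a difference of -0.14 (SE 0.10). Drd1 ranged from 2758 to 4763 and from 2921 to 4011, a difference of -0.06 (SE 0.13). Drd3 differed by -0.14 (SE 0.19) and Drd5 by -0.10 (SE 0.14). Without heterozygote replicate 1 the differences were -0.18 for Drd2, -0.12 for Drd1, -0.16 for Drd3 and -0.17 for Drd5. Over the libraries whose code begins with 35 they were -0.26 (SE 0.10), -0.23 (SE 0.08), -0.23 (SE 0.25) and -0.27 (SE 0.17). Genotype ranges overlapped for each receptor. Striatal projection neuron markers summed to a median of 124246 in heterozygotes and 149754 in wild types, and indirect pathway markers to 15845 and 20957; their part in the receptor values was not tested. Of the 8 genes, 4 were above and 4 below 0, with a median of -0.02 against -0.004 over all genes.

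**Figure D4:**
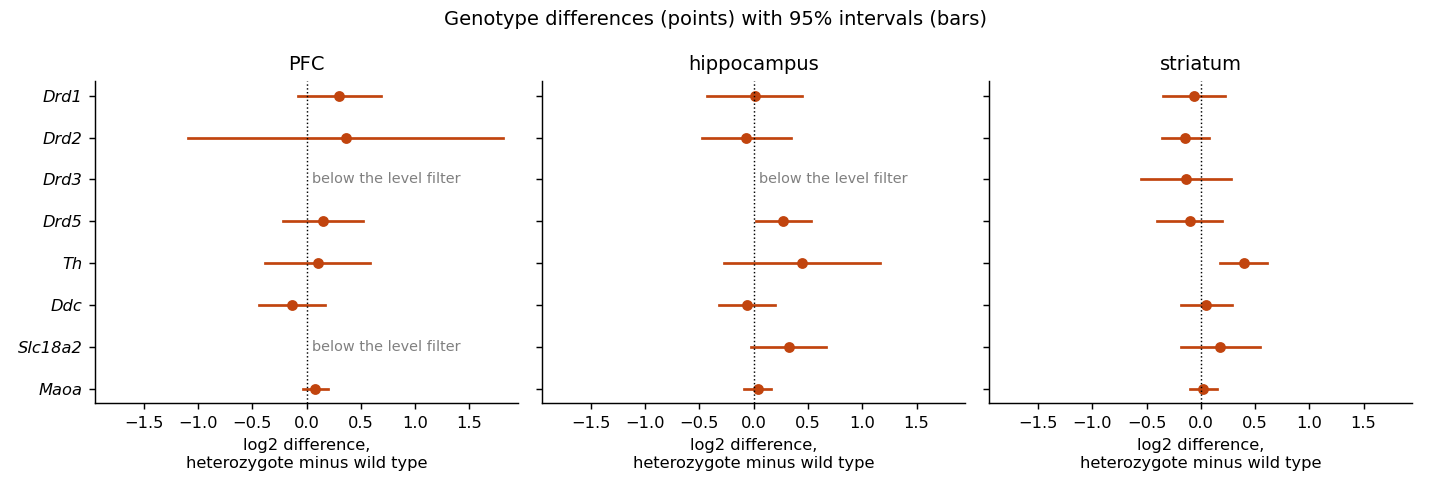
Log2 difference of heterozygote minus wild type (horizontal axes) for 8 genes (vertical axis) in PFC, hippocampus and striatum; points are estimates, bars are 95% intervals and the dotted line is 0. In PFC the interval of Drd2 is the widest (-1.09 to 1.81), and in hippocampus Drd5 lies at 0.27. In striatum, where points and bars are a description and not a test, Th lies at 0.40.

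For 4 genes, those whose log2 deviations from the group mean ran most alike over the 12 striatum libraries were taken from 14037 genes with a mean of at least 50. The libraries share dissection and cell makeup, and the values of r are a description. Drd2 ran most like Pde1b (r = 0.98), Pde10a (0.98), Gng7 and Ccdc88c (both 0.97), of which Pde1b and Pde10a are on the list of projection neuron markers. Drd1 ran most like Slmap (0.98), Osbpl8 (0.96), Zswim6, Trank1 and Rragd (all 0.95). Th ran most like Heph (0.92), Krt1 (0.91), Aff2, Kif1c and Tmem231 (all 0.90), none of which is on the list of other dopamine pathway genes. Maoa ran most like Nrip2 (0.94), Smoc1 (0.92), BC035947, Gbx2 (both 0.91) and Pgr15l (0.90).

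A wider list of 39 dopamine pathway genes, covering breakdown, cofactor synthesis, G proteins and downstream signalling, had 34 genes in the table. Between genotypes, 0 of 32 tested passed by limma in PFC and 0 of 33 in hippocampus. Of these, 1 and 5 had an unadjusted p under 0.05, beside 833 of 16667 and 1145 of 16820 over all genes. The median log2 difference was -0.003 in both regions, against -0.003 and -0.001 over all genes. In striatum, as a description, 11 of 32 lay above 0 and 21 below, with a median of -0.04 against -0.004 over all genes.

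Between wild-type regions, 14 of the 32 were higher in striatum than in PFC and 12 lower (29% and 27.7% of all genes). Signalling genes stood on both sides. Rgs9, a regulator that shortens G protein signals, averaged 6935 ± 669 in striatum and 491 ± 148 in PFC (SD, n = 6 each; log2 difference of PFC minus striatum -3.87, adjusted p = 2.26e-14). Ppp1r1b, which encodes DARPP-32, averaged 19229 ± 1850 and 2557 ± 331 (-2.91, adjusted p = 7.71e-16). The G protein gene Gnal differed by -1.42 (adjusted p = 3.45e-15) and the cyclase gene Adcy5 by -2.09 (adjusted p = 1.86e-17). Rgs4, Ppp1r9b, Gnb1 and Grk2 were higher in PFC, by 0.59, 0.56, 0.40 and 1.01. They were named after their values were seen, so they are given without a test.

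The breakdown enzyme Maob was higher in striatum than in PFC (1024 ± 146 against 793 ± 64.2, SD, n = 6 each; PFC minus striatum -0.36, adjusted p = 5.84e-04). Of the genes that make or recycle the Th cofactor tetrahydrobiopterin, Gch1, the rate-limiting enzyme, was near 50 in each region (49.7 ± 14.2 in striatum, 49.3 ± 12.2 in PFC, 45.3 ± 7.10 in hippocampus). Spr had 391 ± 40.5 in striatum and 401 ± 22.2 in PFC (adjusted p = 0.648), and Qdpr was higher in striatum (PFC minus striatum -0.57, adjusted p = 2.72e-10). Pcbd1, also of this group and named after its values were seen, averaged 236 ± 55.7 in striatum. It averaged 71.8 ± 21.2 in PFC and 75.6 ± 10.8 in hippocampus (SD, n = 6 each). Ncs1, a calcium sensor that binds Drd2, was lower in striatum than in PFC (6256 ± 210 against 8434 ± 313, PFC minus striatum 0.43, adjusted p = 1.41e-10). Slc6a3, the dopamine transporter of midbrain neurons, has no row in the table.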

How the data were processed

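RNA of each library was prepared with a TruSeq v2 kit, per the labels' protocols. The deposited table holds the authors' scaled counts (normalized read signal per gene, not whole numbers). Per the submitters' processing notes, Salmon 1.1.0, R 3.6.2, DESeq2 1.26.0 and GRCm38 were used, in an order not given in the sources used here. Gene IDs were matched to GENCODE M21 symbols (18533 of 18548). Each comparison was fitted with limma 3.58.1 in R 4.3.3 (trend and robust options) on log2(value + 1), over genes with a mean of at least 10, adjusted after Benjamini-Hochberg across every gene in the fit, threshold 0.05. Genotypes were fitted within a region, and regions within a genotype. The test was checked on simulated data. Exon lengths are unions over transcripts. Genes named were the 9 members, Myt1l, 12 pathway genes picked by role, and the 5 most alike per gene; some of these are not reported here. Members and lists were chosen with earlier results of these data known. Alternatives were other pseudocounts, no level filter, equal totals, codes beginning with 35 only, blocks, and each library left out.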

Additional observations from a re-analysis of the deposited data

Results flagged for a closer look

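In 48 combinations of gene and group, the highest and lowest libraries were compared with the rest of their group, and 5 stood apart by Dixon's criterion at 95%. Chance gives about 1 in 20 groups. Th had 78.2 normalized counts in wild-type PFC replicate 6, above the other 5 libraries, and 187 in heterozygote striatum replicate 1, below the other 5. Both carry the code 31-67M, which stands on both genotypes. Ddc had 190.1 in heterozygote PFC replicate 3, above the other 4 libraries. Drd3 had 2.13 in heterozygote PFC replicate 1, where the other 4 were listed at 0, and 13.5 in heterozygote hippocampus replicate 2.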

How the results depend on the processing

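The count of all genes past the threshold between genotypes was 0 in each region. Over libraries whose code begins with 35 it was 1 in PFC, 2 in hippocampus and 2 in striatum. In hippocampus it was 1 after rescaling to equal totals. Leaving out each library gave 0 to 2 in PFC (2 without heterozygote replicate 2), 0 to 4 in hippocampus (4 without heterozygote replicate 1, 2 without wild-type replicate 2, 1 without wild-type replicate 3 or 6) and 0 to 1 in striatum (1 without heterozygote replicate 2). Among tested differences, signs changed only for those past no threshold. Between wild-type PFC and hippocampus, Drd2 was -0.0623 after rescaling and -0.35 over codes beginning with 35, and Maoa was -0.0607 and -0.0170. In heterozygotes Maoa was -0.0221 after rescaling. Leaving out each library gave -0.0642 to 0.71 for Drd2 between genotypes in PFC. In hippocampus it gave -0.20 to 0.12 for Drd1, -0.19 to 0.0050 for Drd2 and -0.11 to 0.0045 for Ddc. It gave -0.32 to 0.45 for Drd2 between wild-type PFC and hippocampus, and -0.20 to 0.0131 for Drd5 between heterozygote PFC and striatum. The causes were not tested. Replicate numbers did not pair the libraries in general, but in wild-type hippocampus and striatum they follow the same order as the column codes. Correlations of same-numbered deviations ran from -0.0983 to 0.296, and in no pair of groups did every library correlate best with its own number. By column code, 4 of 5 matched best between heterozygote PFC and striatum, and 4 of 5 between heterozygote hippocampus and striatum. Between heterozygote PFC and hippocampus 1 of 4 did. In wild type 3 of 5 did for PFC and hippocampus, 2 of 5 for PFC and striatum, and 4 of 6 for hippocampus and striatum. The main regional p-values take libraries that share a code as independent. Fitted correlation within a code was 0.0241 for wild-type and 0.0503 for heterozygote regions. With the replicate block, 1 gene passed in hippocampus, and Ddc there was 0.0045. Low counts of Drd3 and of Slc18a2 in PFC limit what can be seen of them.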
